A study of Oryzias latipes with 18 samples.

Results

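Homeobox genes encode transcription factors (TFs) that bind DNA through a homeodomain, and many of them set the identity of body regions, organs and cell types in the animal embryo. The Hox genes are the members that stay together in chromosomal clusters, whereas most other homeobox genes lie alone, often with enhancers spread over the DNA around them. The genes described here are the non-Hox homeobox genes of medaka that stand alone in the genome. A gene was taken when the TF annotation of the study placed it in the Homeobox family on chromosomes 1 to 24, when it had a name that did not start with hox, and when no other named non-Hox homeobox gene had its transcription start site (TSS) within 100 kb. This rule gave 131 genes, out of 226 homeobox genes on the chromosomes and of 1532 TF genes there. The other homeobox genes were 35 Hox genes, 40 non-Hox genes with a homeobox neighbor within 100 kb, 19 genes without a name and 1 gene on chromosome 22 that was not analysed here. The names came from the list that the study gives with its prediction of pioneer TFs, which used accessibility and expression. Apart from this need for a name, measured values did not enter the rule. The other TF genes used for comparison below were taken with or without a name.

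Open chromatin was profiled by ATAC-seq, an assay in which a transposase inserts sequencing adapters where DNA is accessible, in whole embryos at stages 11, 15, 19, 25, 29, 32, 36, 38 and 40. Stage 11 is a blastula and stage 40 is close to hatching. Each stage had 2 replicates, which makes 18 libraries. All embryos were offspring of the strains d-rR-Tg(olvas-GFP) and Qurt, with no treatment named in the labels, and were freed of chorion and yolk before the nuclei were tagged. The libraries were made from whole embryos, so an element open in few cells and one weakly open in many cannot be told apart. The deposited list holds 149539 accessible elements over all stages, each with its position, a score taken as MACS2's −log10 q-value, and a whole number taken as how many peaks were merged into it. These readings rest on the values: every score was above the limit of 7 that the authors set, and the whole number ran between 1 and 29, with many elements at 9, which is how many stages were merged. Over the whole list the median score was 30.8 and the highest was 2972. No value belongs to a single stage or replicate, so nothing below carries an error between replicates, no test was made, and differences between groups of genes are descriptions. Shares are given with 95% Wilson intervals, which cover counting error only.

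The genes stood apart from each other as the rule required. The nearest other non-Hox homeobox TSS lay at a median distance of 1650 kb, and for 16 of the 131 it lay between 100 and 200 kb. 3 genes had a Hox gene or an unnamed homeobox gene within 100 kb. All 131 overlapped a RefSeq gene of the assembly ASM223467v1, and 64 of their starts lay within 100 bp of an end of that gene. The label was contradicted at 1 gene: ENSORLG00000012375 on chromosome 19 is hoxb1 in RefSeq. ENSORLG00000017534 on chromosome 21 is evx2, a homeobox gene that is not a Hox gene but lies beside a Hox cluster. The RefSeq symbol also differed for the gene named vent, which is bsx there, and for MSX2, which is msx1. Names given by the study are used below.

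A median of 26 accessible elements had their midpoint within 50 kb of the TSS of an isolated homeobox gene, against 25 for all other TF genes. The middle of the distribution, between the quartiles, was 21 to 33.5 elements for the 131 genes and 18 to 33 for the 1401 other TF genes. No isolated homeobox gene had fewer than 12 elements or more than 52, whereas the other TF genes ranged between 0 and 64. The mean was 27.5 ± 8.03 elements for the isolated homeobox genes (SD, n = 131) and 25.5 ± 11.3 for the other TF genes (SD, n = 1401). Isolated homeobox genes thus had about as many elements as the other TF genes as a whole. Other families were close to this value when isolated from their own family by the same distance of 100 kb, but without the need for a name. The median was 28 for 99 bHLH genes (quartiles 24 to 35) and 26.5 for 52 Fork_head genes (23 to 34). Homeobox genes with a neighbor of their own kind had a median of 31 elements (40 genes), and Hox genes 41 (35 genes), where neighboring windows count the same elements again. The windows of the 131 isolated genes did not share elements and held 3599 of them.

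The genes belong to several homeobox classes, which differ in the sequence of the homeodomain and in the domains next to it. TALE proteins (Irx, Meis, Pbx, Pknox and Tgif) have a longer loop in the homeodomain, and Pbx and Meis act as partners of Hox and other homeodomain proteins. The TALE class had the most elements per gene, with a median of 33 over 17 genes and a range of 18 to 52, although within 100 kb the 3 genes of the SINE class had a higher median (59, against 56 for TALE). The median was 26 in each of the HOX-like class (12 genes, for example Cdx, Gbx and Meox), the LIM class (17 genes, for example Lhx, Lmx and Isl), the NK-like class (37 genes, for example Nkx, Msx and En), the PRD class (27 genes, for example Rx, Otp and Alx) and the SINE class (3 genes named for the Drosophila gene sine oculis). It was 24 in the 8 genes of the zinc finger and HNF classes (ZHX, ZFHX, Homez, Hmbox and Hnf1) and 27 in the 10 genes that could not be placed by their symbol.

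**Figure D1:**
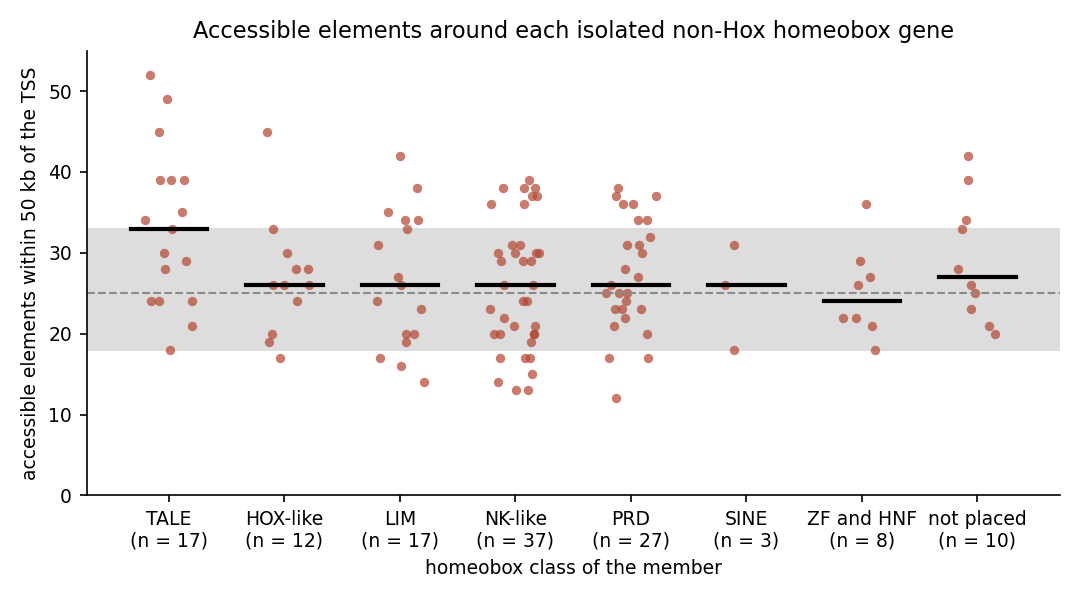
Number of accessible elements with their midpoint within 50 kb of the TSS, for each of the 131 isolated non-Hox homeobox genes (points), by homeobox class. Black bars are class medians, and the dashed line and gray band are the median (25) and quartiles (18 to 33) of all other TF genes. The TALE class has the highest median in this window, 33, and includes the genes with 52 and 49 elements.

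The genes with the most elements were of several classes and functions. tgif1, a TALE gene whose product represses TGF-beta signalling targets in vertebrates, had 52 elements and was the highest of the 131. irx5a, an Iroquois gene that patterns the neural tube, heart and other organs, followed with 49 elements. cdx4, which regulates posterior Hox genes and tail formation, and meis1b each had 45. lmx1bb, a LIM gene of dorsal neural tube and kidney development, and the gene matched to hoxb1 each had 42 elements. A group with 39 elements each was made up of irx1a, irx3a, irx6a, zgc:101100 and CABZ01093502.1, which is dbx2 in RefSeq. At the low end, otpb, a PRD gene of hypothalamic neurons, had 12 elements. vent and Dlx3 each had 13, lhx6 and tlx1 each had 14, and barx1, a gene of the pharyngeal arches, had 15.

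The elements around these genes were placed in different ways. Around tgif1 on chromosome 20 (19222427 to 19226391, forward strand) 27 elements lay on the upstream and 25 on the downstream side, and 11 of the 52 were merged from 9 or more peaks. Only 5 of them lay within 1 kb of an end of another protein-coding gene, although there were 3 such genes in the window. The strongest of the 52, with a score of 226, lay 21.7 kb downstream of the TSS. The next were 210 inside the gene, 206 at 42.9 kb upstream and 196 at 2.16 kb upstream. Elements of 193 and 186 followed, 24.2 and 30.5 kb downstream. Around meis1b on chromosome 15 (11434181 to 11552125, reverse strand) 28 of the 45 elements lay inside the gene, which is 118 kb long. Inside meis1b the strongest element away from the TSS had a score of 228, at 20.8 kb. Similarly, 23 of the 42 elements of lmx1bb and 22 of the 34 of pbx3b lay inside these genes, which are 41.3 and 58.3 kb long. In arx 15 of 30 elements were counted as inside the gene, but the gene model used there also covers the neighbor pola1. The models of meis1b, pbx3b and arx reach past the downstream edge of the window. Elements downstream of their TSS, beyond the first 1 kb, thus lay inside them by definition. Around lmx1bb 1 element lay beyond the gene end.

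Gene length, space and neighbors went along with the number of elements only weakly. Over the 131 genes, Spearman's rho with the number of elements was 0.10 for the intergenic space around the gene, −0.14 for the number of other protein-coding genes in the window and −0.02 for the length of the gene. These values are descriptions over genes, whose counts come from the same libraries. 16 of the 131 genes had no other protein-coding gene in the window, which was the case for 4.85% of all other TF genes. 8 of these 16 were TALE genes (6 irx genes, meis1b and pbx3b). Their median was 29 elements, between 13 for vent and 49 for irx5a, so the absence of neighbors was found with both high and low counts.

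The irx genes occur in groups that are kept in vertebrate genomes, and in medaka the members of a group were far enough apart to count as isolated. On chromosome 3, irx6a, irx5a and irx3a followed each other with their starts at 29013088, 29155295 and 29356431. No other protein-coding gene lay between these starts. The 343 kb from the first to the last start held 149 elements. This was a density of 434 elements per Mb, and all chromosomes together had 197 per Mb. The latter value also covers DNA far from TF genes. For comparison, the DNA within 50 kb of the TSS, which is 100 kb per gene, held more than all chromosomes together. Its mean per 100 kb was 27.5 elements for the 131 genes, 25.5 for other TF genes and 40.9 for Hox genes. Each of these means was below the density of the interval on chromosome 3. The part between irx5a and irx3a, 201 kb long, was the denser with 477 elements per Mb, and the 142 kb between irx6a and irx5a held 373 per Mb. On chromosome 16, irx4a, irx2a and irx1a spanned 306 kb from the first to the last start, also without another protein-coding gene, with 96 elements or 313 per Mb. In this interval 41.7% of the elements were single peaks, and 4.17% were merged from 9 or more, whereas in the interval on chromosome 3 these shares were 30.9% and 8.05%. Over the whole list 27.7% were single peaks, and 12.5% were merged from 9 or more. Both intervals had a smaller share of elements of many peaks than the list as a whole, which includes elements at ends of other genes. Among elements around all isolated homeobox genes, away from the TSS and at no other gene end, 5.22% came from 9 or more peaks. This value lay between those of the intervals, so a small share was not particular to the irx genes.

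The 8 irx genes differed among themselves. The 3 genes of the chromosome 3 group had 39, 49 and 39 elements (irx6a, irx5a and irx3a), and those of the chromosome 16 group had 24, 33 and 39 (irx4a, irx2a and irx1a). The 2 irx genes that lie outside these groups, irx5b and irx7, had 24 and 21 elements. These 2 genes had 6 and 3 other protein-coding genes in the window, and 9 and 6 of their elements lay at an end of such a gene. The TSS element of irx5a was the strongest of all irx genes, with a score of 237 from 9 peaks, and irx2a (172, from 9 peaks) and irx1a (163, from 8 peaks) came next. The TSS elements of irx3a, irx6a, irx4a, irx5b and irx7 scored between 26.1 and 85.6.

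Nearly all isolated homeobox genes had an accessible element at the promoter. An element with its midpoint within 1 kb of the TSS, called a TSS element here, was found for 124 of the 131 genes (94.7%, interval 89.4 to 97.4%), whereas 85.9% of all other TF genes had one (interval 83.9 to 87.6%). The other TF genes needed no name. With the unnamed homeobox genes added, the share of the isolated homeobox genes was 93.9%. Related groups had shares close to that of the isolated homeobox genes, with 95% for homeobox genes with a homeobox neighbor, 93.9% for isolated bHLH genes, 92.3% for isolated Fork_head genes and 91.4% for Hox genes. This order depended on the distance allowed. When the element had to cover the base of the TSS itself, 64.9% of the isolated homeobox genes had one, and the difference from all other TF genes was −0.568 percentage points. Within 2 kb, each of the 131 had an element. The 7 genes without a TSS element were nkx2-5, a regulator of heart progenitors, gsx2 and nkx6.3, which act in the nervous system and other tissues, nkx1.2la, lhx8b, sebox and ENSORLG00000018251. Their annotated starts lay a median of 329 bp away from the closest end of their RefSeq gene, against 98 bp for the genes with a TSS element. The part of the annotation in the missing elements was not tested. These 7 genes had between 17 and 36 elements in the window, so their surroundings were not empty.

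The TSS elements of the isolated homeobox genes had lower scores and were merged from fewer peaks than those of other TF genes. Where a gene had several, the strongest was taken. The median score was 67.8 (quartiles 36.2 to 150), against 132 (57.2 to 258) for all other TF genes. It was 50.7 for Hox genes, 76.9 for homeobox genes with a homeobox neighbor, 76.0 for isolated Fork_head genes and 145 for isolated bHLH genes. A low score was thus not particular to the isolated homeobox genes. Of the 124 TSS elements, 42 were merged from 9 or more peaks (33.9%, interval 26.1 to 42.6%), whereas this was the case for 59.1% of the TSS elements of all other TF genes (interval 56.3 to 61.8%). With 9 stages, such an element could come from a peak at every stage, although the list does not name the stages. At the other end, 10 of the 124 came from a single peak (8.06%), against 4.9% among all other TF genes. The share from 9 or more peaks was 31.3% for Hox genes, 39.5% for homeobox genes with a homeobox neighbor, 43.8% for isolated Fork_head genes and 55.9% for isolated bHLH genes. The intervals were 30.7 to 57.7% for the Fork_head genes and 45.8 to 65.6% for the bHLH genes. They were 18.0 to 48.6% for the Hox genes and 25.6 to 55.3% for the homeobox genes with a homeobox neighbor. Genes are not replicates, so whether these intervals overlap is no test between the groups.

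**Figure D2:**
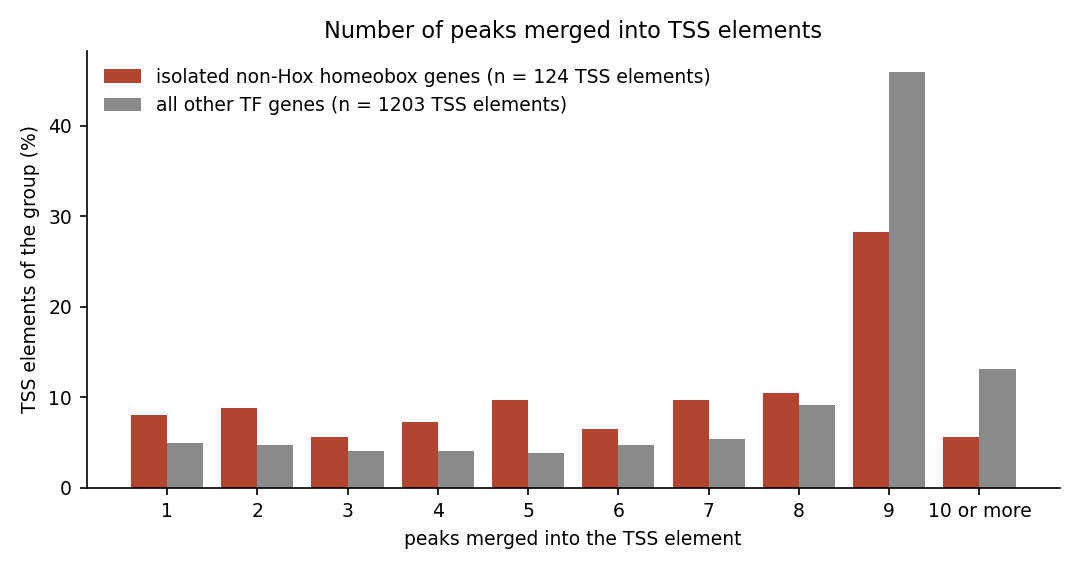
Share of TSS elements (vertical axis, in percent of the group) by how many peaks were merged (horizontal axis), for the isolated non-Hox homeobox genes (red, 124 TSS elements) and all other TF genes (gray, 1203 TSS elements). Elements of 9 or more peaks make up 33.9% of the red and 59.1% of the gray group, and the red group is higher at each number between 1 and 8.

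The share from 9 or more peaks was also taken in subsets of genes. Among genes whose TSS element lay at no end of another protein-coding gene it was 32.5% for 117 isolated homeobox genes, against 58.6% for 1060 other TF genes. Where the TSS element did lie at such an end, the shares were close, with 57.1% (4 of 7, interval 25.0 to 84.2%) for isolated homeobox genes, against 62.9% for 143 other TF genes (interval 54.8 to 70.4%). The median score in this small subset went the other way, with 196 for isolated homeobox genes, against 138. Among genes with an annotated start within 100 bp of a RefSeq gene end the share from 9 or more peaks was 36.5% (63 genes), against 66.8% (597 genes). Among genes shorter than 10 kb it was 29.6% (98 genes), against 53.1% (682 genes). When the zinc finger family zf-C2H2, a large TF family, was left out of the other TF genes, their share was 58.6%. The TSS elements had a median width of 349 bp at isolated homeobox genes and 336 bp at all other TF genes. Likewise 65 of the 131 isolated homeobox genes had 2 or more elements within 1 kb of the TSS, against 46.6% of all other TF genes.

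The classes differed in their TSS elements more than in their number of elements. The zinc finger and HNF genes had a median TSS element score of 259, and 5 of their 8 TSS elements came from 9 or more peaks. In the TALE class the median was 163, with 10 of 17 from 9 or more peaks. NK-like genes had a median of 71.1 (15 of 34), HOX-like genes 56.3 (2 of 11) and LIM genes 46.1 (2 of 16). PRD genes had the lowest median score, 35.5, with 4 of 26 from 9 or more peaks. The PRD and LIM classes include many genes of neurons and sense organs, such as phox2, rx, lhx and Isl. Scores within them varied, between 8.78 and 195 in the PRD class and between 12.5 and 237 in the LIM class. The highest LIM score was that of Isl2 on chromosome 3. Whether the scores go with the tissue of a gene was not tested.

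The highest TSS element score was 627, at pknox1.2 on chromosome 21 (31115597 to 31116069, 9 peaks), whose product is a partner of Pbx proteins. pbx3b on chromosome 9 had a TSS element of 596 (19130089 to 19130903), merged from 16 peaks, the highest number among the 124 TSS elements. Homez had 519 and pbx2 had 506, both from 9 peaks. ZHX1 on chromosome 11 had 438, hmbox1b had 407 and hmbox1a had 322. The gene ENSORLG00000008039 followed with 303, vax2, a gene of the ventral eye, with 282, and meis1b with 274. All of these were merged from 9 or more peaks. At the low end, where the genes were picked after their values had been seen, the TSS elements of pdx1, the pancreas regulator, ENSORLG00000017534 (evx2) and si:ch211-236k19.2 scored between 8.38 and 8.64, close to the limit of 7, and each came from 1 peak. The annotated starts of these 3 genes lay 1067, 1509 and 1251 bp from the closest end of their RefSeq gene, whereas 115 of the 131 starts lay within 1 kb of one. vsx1, vent, lmx1a and Nobox, known for its role in oocytes, were also from 1 peak, with scores between 11.9 and 13.6.

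A high score and many merged peaks went together over the whole list, where the median score was 13.6 for elements of 1 peak, 21.1 for 2, 28.0 for 3 and 149 for 9. Some TSS elements scored higher than most other elements of as few peaks, at genes of the early embryo and at other genes. The following genes were picked after their values had been seen. The TSS element of mixl1, a mesendoderm gene of the gastrula, covered the TSS on chromosome 24 (7727872 to 7728346), scored 121 and came from 2 peaks. 99.1% of all elements of 2 peaks in the list scored less. The TSS element of vox, a repressor of dorsal fate, on chromosome 15 (2814657 to 2815283) scored 212 from 3 peaks, above 99.8% of all elements of 3 peaks. nanog, the pluripotency factor of the blastula, had a TSS element of 89.7 from 2 peaks, above 97.8% of its kind, although this element also lay within 1 kb of an end of another protein-coding gene. ved, a further ventralizing gene, had 53.3 from 3 peaks, above 84.3%. Other values stood beside these. The gene named vent, bsx in RefSeq, had 12.2 from 1 peak (above 40.3%), and sebox had no TSS element. ENSORLG00000000457 had 55.1 from 1 peak (above 98.6%) and lhx8a had 63.0 from 2 peaks (above 94.2%). lhx5, a neural LIM gene, had a TSS element of 150 from 3 peaks (above 98.9%), and gsc, the organizer gene, had 111 from 11 peaks, though its annotated start lies 1774 bp from an end of the RefSeq gene. The list does not give the stages of these peaks.

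Around vox, further elements of few peaks followed the TSS. Elements of 85.8 (3 peaks) and 91.0 (2 peaks) lay 1.40 and 1.99 kb downstream of it, beyond the end of this gene of 1.12 kb. The strongest element of its window, with a score of 251 from 6 peaks, lay 9.46 kb downstream. Around mixl1, in contrast, the next strong elements, at 2.89 kb upstream (122) and 2.66 kb downstream (216), were merged from 9 peaks each. The upstream one lay at an end of another gene. Around nanog an element 2.49 kb upstream scored 223 from 9 peaks.

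**Figure D3:**
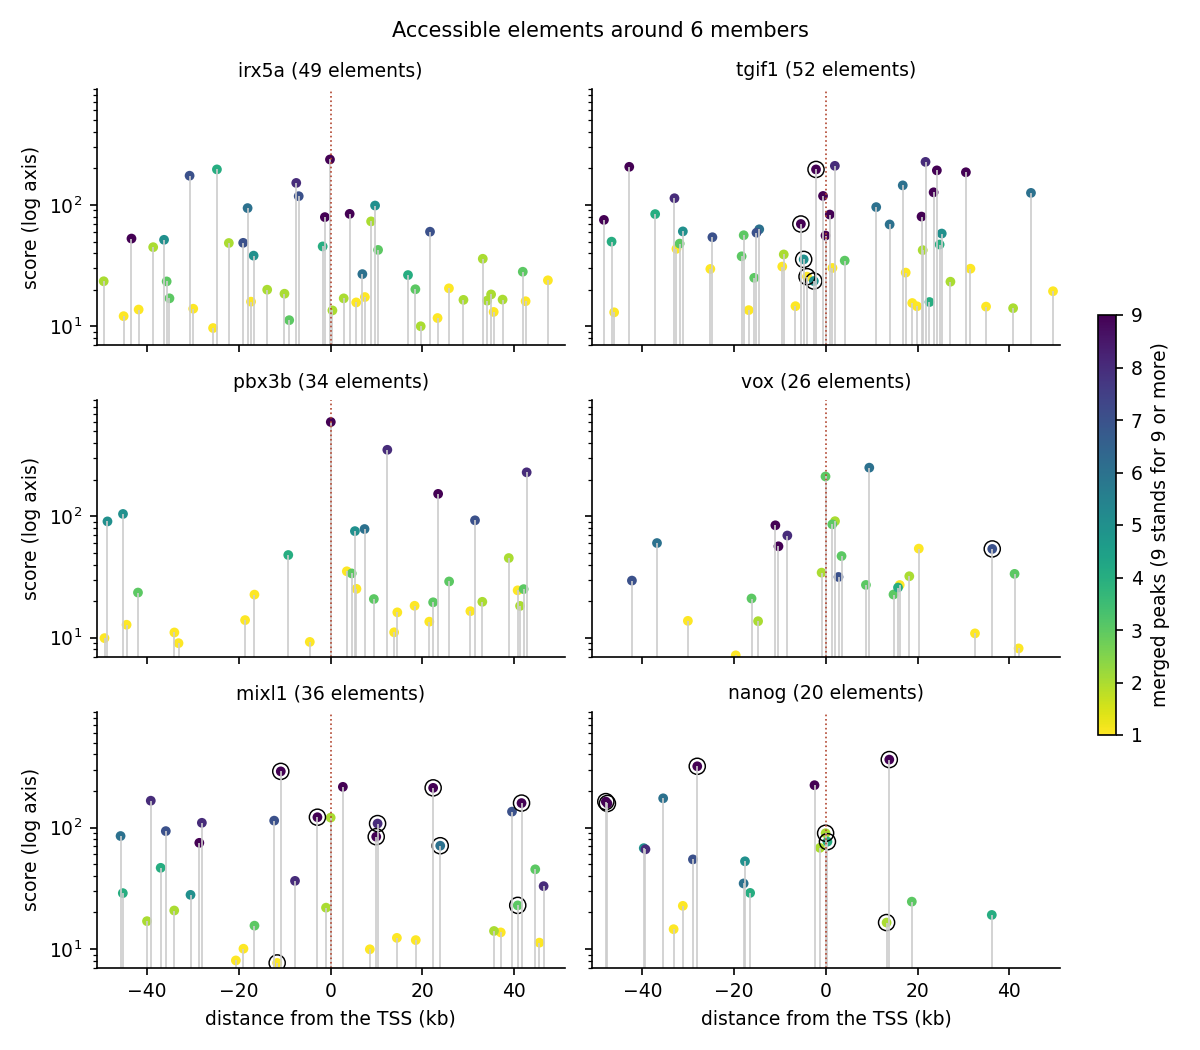
Score of each accessible element (vertical log axis) by its distance from the TSS in kb (horizontal axis, negative upstream, dotted line at the TSS) for irx5a, tgif1, pbx3b, vox, mixl1 and nanog. The color gives the number of merged peaks and open circles mark elements within 1 kb of an end of another protein-coding gene. TSS elements of irx5a (237) and pbx3b (596) are from 9 and 16 peaks, whereas those of vox (212), mixl1 (121) and nanog (89.7) are from 2 or 3.

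The strongest element in the window was mostly not the TSS element. Only 5.67% of the elements in these windows lay within 1 kb of the TSS, against 5.72% for all other TF genes. The strongest one would thus mostly lie elsewhere even if scores did not depend on place. For 118 of the 131 genes (90.1%, interval 83.8 to 94.1%) the strongest element lay elsewhere within 50 kb, against 80.2% of all other TF genes with elements (interval 78.1 to 82.3%). This was not particular to them, since the share was 95% for homeobox genes with a homeobox neighbor, 100% for Hox genes, 86.5% for isolated Fork_head genes and 72.7% for isolated bHLH genes. A gene without a TSS element counted here by definition. This held for 7 isolated homeobox genes and for a larger part of the other TF genes, of which 85.9% had a TSS element. Of the 124 isolated homeobox genes with a TSS element, 111 had their strongest element elsewhere. In 65 of the 131 windows (49.6%) the strongest element away from the TSS lay within 1 kb of an end of another protein-coding gene. The share was close to the 52.4% of all other TF genes. It was 47.5% for isolated bHLH genes, 57.7% for isolated Fork_head genes, 45.7% for Hox genes and 67.5% for homeobox genes with a homeobox neighbor. Whether the elements at such ends are promoters of the neighbors was not tested. The strongest element away from the TSS had a median score of 265, against 284 for all other TF genes. When the elements at other gene ends were left out, the strongest element still lay away from the TSS for 83.2% of the isolated homeobox genes. Over the 124 genes with a TSS element, the scores of the TSS element and of the strongest other element had a Spearman's rho of −0.05, as a description.

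The highest scores in the windows were 699, 689, 677 and 638. The element of 699 lay 3.81 kb downstream of the TSS of ved, the one of 689 lay 32.2 kb upstream of lhx6, a gene of forebrain interneurons in mammals, and the one of 677 lay 12.5 kb downstream of rx2, a gene of retinal stem cells in medaka. These 3 lay at an end of another protein-coding gene. The element of 638 did not. It lay 17.2 kb upstream of en2, a gene of the midbrain and hindbrain boundary, on chromosome 20 (19442133 to 19442413), and was merged from 9 peaks, while the TSS element of en2 scored 124. Of other strong elements at no other gene end, picked after their values had been seen, 2 were those of hhex, a gene of the early liver and of blood vessels (422, 45.1 kb upstream), and Isl1 (386, 25.8 kb upstream). The TSS elements of hhex and Isl1 scored 67.6 and 64.7. otpb, the gene with the fewest elements, had 355 at 26.1 kb and 291 at 19.7 kb upstream, but 45.1 at the TSS. At this gene a low count did not mean weak elements. Around vent, which also had few elements, the highest score was 70.6.

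**Figure D4:**
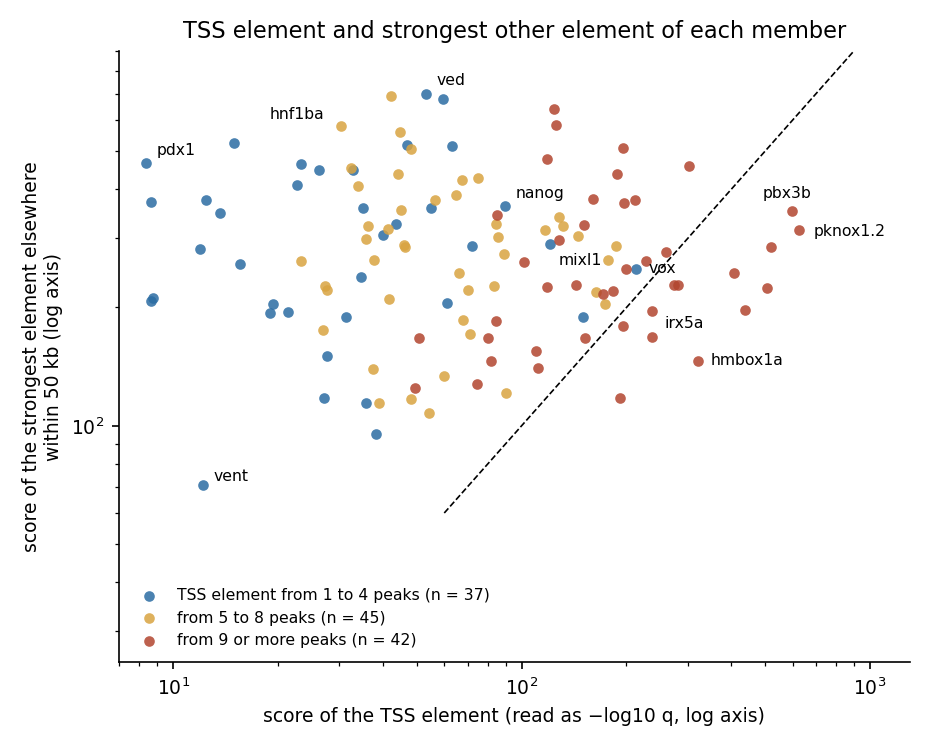
Score of the TSS element (horizontal log axis) and of the strongest other element within 50 kb (vertical log axis) for the 124 isolated non-Hox homeobox genes with a TSS element, colored by the number of peaks merged into the TSS element. Below the dashed line, where both scores are equal, lie the 13 genes whose TSS element was the strongest, all of them from 9 or more peaks. The strongest other element is the highest of many more elements than lie at the TSS.

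For 13 genes the TSS element was the strongest of the window, and all 13 TSS elements came from 9 or more peaks, with a median score of 322. These genes were picked by score, and scores rise with merged peaks over the whole list. The high score and peak number are thus not separate traits of them. The 13 genes were pknox1.2, pbx3b, Homez, pbx2, ZHX1 on chromosome 11, hmbox1b, hmbox1a, vax2, meis1b, irx5a, Isl2 on chromosome 3, prrx1b and msx2b. Beside the 13 of all 131 genes, they were 5 of the 17 TALE genes and 4 of the 8 zinc finger and HNF genes. They were also 2 of the 37 NK-like genes, 1 of the 27 PRD genes and 1 of the 17 LIM genes. The 12 HOX-like, 3 SINE and 10 unplaced genes had none, which in classes this small is close to the share of all 131. vax2, Isl2, prrx1b and msx2b, which have restricted roles in the eye, in neurons, in mesenchyme and in the fin and neural crest, were among the 13. Their TSS elements scored between 191 and 282.

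Away from the TSS, the elements were spread evenly over the window. Within 5 kb upstream of the TSS there were 2.08 elements per gene and within 5 kb downstream 2.44, against 1.64 and 1.94 for all other TF genes. From 10 kb on, each 5 kb held between 1.00 and 1.41 elements per isolated homeobox gene. The downstream side held 50.7% of the elements (1824 of 3599). More elements lay downstream than upstream for 71 genes and upstream for 56, and 4 genes had equal numbers. Among the genes with the largest excess upstream were hmbox1b (29 upstream and 7 downstream), ENSORLG00000017534 (27 and 6) and pknox1.2 (16 and 2). The largest excess downstream was found for Isl2 on chromosome 3 (9 upstream and 26 downstream), nkx2-5 (10 and 26), rx2 (11 and 25) and shox2, a gene of limbs and heart pacemaker cells in mammals (12 and 26).

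**Figure D5:**
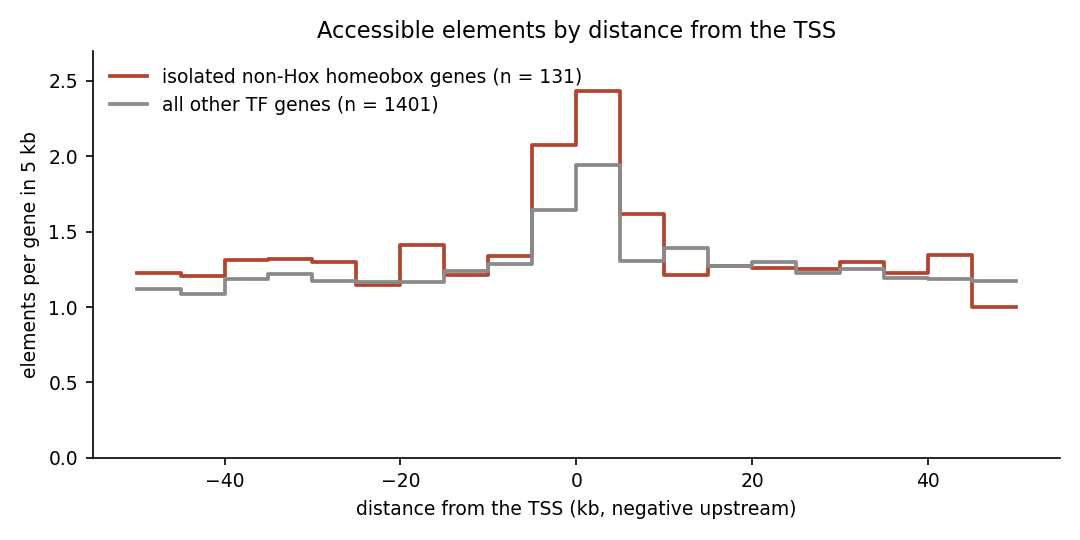
Accessible elements per gene in bins of 5 kb (vertical axis) by distance from the TSS in kb (horizontal axis, negative upstream) for the 131 isolated non-Hox homeobox genes (red) and the 1401 other TF genes (gray). Both rise near the TSS, with 2.44 and 1.94 elements per gene in the first 5 kb downstream.

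By place, 204 of the 3599 elements lay within 1 kb of the TSS (5.67%), 346 elsewhere inside the gene (9.61%), 1678 upstream (46.6%) and 1371 beyond the gene end (38.1%). For all other TF genes 13.3% were inside the gene, and their median length was 8.07 kb, against 5.17 kb for the isolated homeobox genes. In the windows as a whole 437 elements (12.1%) were merged from 9 or more peaks, close to the 12.5% of the whole list. These were not placed evenly. Of 677 elements away from the TSS that lay at an end of another protein-coding gene, 36.0% came from 9 or more peaks, with a median score of 59.0. Of 2718 that lay at no such end, 5.22% did, and their median score was 31.6. Inside the isolated homeobox genes it was 5.20%. So most of the elements merged from many peaks in these windows lay at gene ends, and the bulk of the others came from few peaks.

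Fish genomes carry duplicate copies of many genes, and 67 of the 131 belong to 26 groups of related genes. In 14 of these groups the counts of elements differed more than 1.5-fold, and in 5 groups they differed 2-fold or more. These 5 were irx (8 genes, 21 to 49 elements), cdx (3 genes, 20 to 45), lmx1 (3 genes, 20 to 42), lhx1 (3 genes, 17 to 34) and phox2 (2 genes, 17 to 34). A larger group reaches a wide range more easily. No share was computed for groups of unrelated genes, and the quartiles of all 131 genes were 21 to 33.5 elements. The differences can thus not be read as particular to related genes. phox2a and phox2bb, regulators of autonomic neurons, also differed at the TSS, with scores of 177 from 7 peaks and 27.7 from 2 peaks. Of the cdx genes, cdx4 had a TSS element of 187, against 90.3 and 48.1 for the Cdx1 genes on chromosomes 14 and 10. Other groups had like counts and unlike promoters. gbx1 and gbx2 each had 26 elements, but TSS element scores of 128 and 27.7. ZHX1 on chromosome 11 and on chromosome 16 had 21 and 18 elements, and TSS element scores of 438 and 71.2. In the vax group, where the counts also differed, vax2 and vax1 had 29 and 17 elements, with 282 and 61.0 at the TSS. Both dmbx1 genes had TSS elements of like score, 174 for dmbx1a and 161 for dmbx1b, and both hmbox1 genes were high. The 4 msx genes, which act in the neural crest and fins, had TSS elements between 110 and 196, all from 9 or more peaks. All 3 rx genes, which act in the eye field and retina, had TSS elements of 2 to 5 peaks, with scores between 35.1 and 59.3.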

How the data were processed

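Embryos were dechorionated with pronase, and the libraries followed the Omni-ATAC protocol. Per the labels, the authors used Trimmomatic 0.36, Bowtie2 2.3.4.1, Picard, MACS2 2.1.2, bedtools and deepTools. Mapping was to the reference genome of medaka, and the depth per library is not given in the sources used here. Replicates were merged, peaks were called with MACS2, kept above 7 in −log q-value and merged over stages. The deposited list has 2 values per element: a −log10 q-value, whose derivation for an element of several peaks is not stated, and another whole number, read as the number of merged peaks. The score has up to 5 decimals, and 9-peak elements scored as low as 13.2, so it is not a sum over peaks.

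Gene positions, strands and families came from the TF annotation of the study, and names from its list for pioneer TF prediction. Elements were assigned by midpoint. RefSeq gene ends of ASM223467v1, without strand, served for symbols and neighbors. Genes were described in the text if they had the most or fewest elements, the highest TSS or other scores, no TSS element, the largest excess on either side, a place at the ends of their class or related copies. Some genes that this rule names are not reported here. The genes, groups and rules were chosen with earlier results of these data known. The software was pandas 2.3.3, NumPy 2.4.6 and SciPy 1.17.1 under Python 3.11.15, with Matplotlib 3.10.9 for plots, and the counting was tested on simulated data. Alternatives changed the gene set, isolation distance, window, score limit, joining of elements, TSS distance and number of peaks.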

Additional observations from a re-analysis of the deposited data

How the results depend on the processing

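No paired analysis was possible because the list pools the libraries of all stages and replicates. For the same reason no replicate could be left out, depth could not be examined, and the promoter sequences planned as an alternative were not run, since no sequence was at hand. With a score limit of 20 the median fell to 19.0 elements, 85.5% of genes had a TSS element, 48.6% of elements lay downstream and 17.1% came from 9 or more peaks, with class medians of 18.5 (HOX-like), 17.0 (LIM), 19.0 (NK-like and PRD) and 22 (TALE). Joining elements closer than 500 bp gave 21.0 elements and 20.5% from 9 or more peaks. A window of 25 kb gave 15.0 elements, class medians of 13.5 (HOX-like), 13.0 (LIM), 15.0 (NK-like and SINE), 17.0 (PRD), 18.0 (TALE) and 11.5 (zinc finger and HNF), and a strongest element away from the TSS 15.4 percentage points more often than for all other TF genes. A window of 100 kb gave 49.0 elements and class medians of 47.5, 45.0, 44.0, 52.0, 59.0, 56.0 and 41.5 for HOX-like, LIM, NK-like, PRD, SINE, TALE and zinc finger and HNF genes, so TALE was the highest class at 25 and 50 kb but not at 100 kb. A TSS element was found for 87.8% of genes within 500 bp, 100% within 2 kb and 64.9% when it had to cover the TSS, where the difference from all other TF genes reversed to −0.568 percentage points. With 8 or more peaks as the limit, 18.0% of all elements and 44.4% of TSS elements passed. Adding the unnamed homeobox genes gave 37.0% of TSS elements from 9 or more peaks and a median TSS element score of 74.7. Without elements at ends of other genes, an alternative chosen after seeing the data, the median was 21.0 elements, 6.47% came from 9 or more peaks and the strongest lay away from the TSS for 83.2% of genes. 2 more alternatives were chosen after seeing the data, the start moved to the RefSeq gene end and the genes matched to hoxb1 and evx2 left out. Over all alternatives, 136 values stayed within the interval of the main value or a 1.5-fold range, 36 moved out of it and 1 reversed. Even within it, the difference in median elements from all other TF genes was 0.0 with a 100 kb window or at the lowest with 1 chromosome left out, and 3.0 without elements at other gene ends. The difference in the TSS share was 4.84 percentage points with a score limit of 20, and that in the strongest element 5.13 points at 100 kb. The lower score of TSS elements and their lower share from 9 or more peaks kept their direction in each alternative run. The subset of 7 TSS elements at an end of another gene was not such an alternative, and its median score was the higher one.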
